A study of Mus musculus with 12 samples.

Results

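Brain long noncoding RNAs were examined in the hippocampus of mice 1 h after passive avoidance (PA) training. The genes were taken by name from a list of 8, *Malat1*, *Neat1*, *Meg3*, *Rian*, *Mirg*, *Miat*, *Snhg11* and *Peg13*, a rule that uses names and no measured value, although earlier results of these data were known when the list was made. Of these, 7 had a gene ID among the 37991 genes counted and all 7 passed the expression filter, which left 16399 genes for testing. *Peg13* had no gene of its own in the annotation used here and was not analysed. The study compared 6 mice labelled wild type (*Gadd45a*-WT) with 6 labelled *Gadd45a*-/- (*Gadd45a*-KO), all of strain C57BL/6N, obtained by crossing heterozygotes and aged 6 to 7 months by the labels. Both groups went through the PA test, in which a mouse learns to avoid a compartment where it received a foot shock, so that no untrained mice were compared here. Per the study's methods the mutation is constitutive, with a neomycin cassette in place of exons 1 to 3 of *Gadd45a* while exon 4 remains. Poly(A) RNA of each hippocampus was sequenced as 1 stranded library.

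Long noncoding RNAs are transcripts that are not translated into a conserved protein and that often act as RNA. *Malat1* gathers at nuclear speckles, where splicing factors are stored, and *Neat1* is the scaffold around which paraspeckle proteins assemble. *Meg3*, *Rian* and *Mirg* are transcribed from the maternal allele of the imprinted *Dlk1-Dio3* region and carry snoRNAs and miRNAs in their introns and exons, *Miat* is a nuclear RNA of neurons that binds splicing factors, and *Snhg11* hosts snoRNAs.

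Between 44594261 and 55540601 reads per library fell on genes, and the totals did not separate the labels (two-sided exact permutation test, p = 0.450). The share of reads without a gene ranged from 14.4 to 15.8% in WT-labelled libraries and from 13.0 to 14.3% in KO-labelled ones, without overlap (two-sided, p = 0.00216 by exact permutation, and no smaller value is possible with 6 against 6 libraries). Reads on *Gadd45a* itself ran opposite to its labels. *Gadd45a* had 2.19 to 3.43 CPM (the reads of a gene scaled to a common library total with TMM factors) in WT-labelled libraries and 20.5 to 23.1 CPM in KO-labelled ones, a log2 fold change of 3.06 (SE 0.09, edgeR quasi-likelihood test, Benjamini-Hochberg adjusted p = 1.33e-10). Counts per gene do not separate the exons, so the libraries are called WT-labelled or KO-labelled throughout, and each direction given here is between labels. All 8 markers of hippocampal subfields were tested, with a summed level of 1158 to 1246 CPM in WT-labelled libraries and 1010 to 1298 CPM in KO-labelled ones. The 8 thalamic markers, genes of a brain region beside the hippocampus, summed to 537 CPM in replicate 3 and 355 CPM in replicate 2 labelled *Gadd45a*-KO and to 124 to 168 CPM in the other 10 libraries. In a tissue sample, fewer cells of a type and less RNA per cell cannot be told apart.

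*Malat1* and *Neat1* are neighbours on the minus strand of chromosome 19, and their 3′ ends are shown because the libraries were made from poly(A) RNA. Each stretch reads 5′ to 3′ from NCBIM37, the build of the counts, with the longest run of A in capitals. The *Malat1* stretch lies at chr19:5795918-5796129 and the *Neat1* stretch at chr19:5824608-5824807, which includes 100 bases past the annotated end.
Malat1 3′ end: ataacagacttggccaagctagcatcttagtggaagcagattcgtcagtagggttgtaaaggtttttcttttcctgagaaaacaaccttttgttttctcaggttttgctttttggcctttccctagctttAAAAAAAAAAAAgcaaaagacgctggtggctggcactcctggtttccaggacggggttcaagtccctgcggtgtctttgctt
Neat1 3′ end: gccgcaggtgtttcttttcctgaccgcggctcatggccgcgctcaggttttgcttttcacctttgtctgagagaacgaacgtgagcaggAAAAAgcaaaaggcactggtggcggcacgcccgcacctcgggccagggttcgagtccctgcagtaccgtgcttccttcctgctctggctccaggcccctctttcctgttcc
The run in *Malat1* had 12 A, encoded in the genome, and 298 bases of the annotated gene followed it. Those bases include the part that folds like a tRNA and is known to be cut off as a separate small RNA. The run in the *Neat1* stretch had 5 A. In both stretches the run is followed directly by gcaaaag, with agtccctgc further on. Processing of either end was not measured. Among 16365 tested genes with a sequence, 2.90% held a run of at least 12 A in the last 500 bases of their longest transcript, and *Malat1* was the only one of the 7 that did. The longest run anywhere in the longest transcript was 16 A for *Meg3*, 8 for *Snhg11*, 7 for *Neat1* and *Rian*, and 4 for *Mirg* and *Miat*.

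*Malat1* (ENSMUSG00000092341) lies at chr19:5795690-5802671 of NCBIM37, is annotated as 1 exon of 6982 bases, and fell with the KO label. In the WT-labelled libraries it had 604 CPM at the lowest, 862 at the median and 1007 at the highest, from 27528 to 52304 reads. In the KO-labelled libraries the lowest was 422 CPM, the median 499.6 and the highest 557, from 21881 to 28603 reads. The ranges did not overlap, and replicates 1 and 4 labelled *Gadd45a*-WT, at 606 and 604 CPM, lay closest to the other label. The means were 817 ± 181 CPM and 495 ± 53.2 CPM (SD, n = 6 each), and WT-labelled libraries varied more, with a coefficient of variation of 22.1% against 10.8%. The log2 fold change was -0.72 (SE 0.13, 95% interval -0.997 to -0.45, edgeR quasi-likelihood test, Benjamini-Hochberg adjusted p = 0.00339), a level in poly(A) libraries 39.4% lower with an interval from 26.7 to 49.9%. An exact permutation test of the difference of means gave p = 0.00216 (two-sided). *Malat1* was thus the only one of the 7 past the threshold of 1% FDR. Over all tested genes 2.65% passed it, 2.62% lower and 0.0244% higher, and 3.12% were lower without overlap of the labels. The call was lost when 1 of 5 libraries was left out, replicates 3, 5 and 6 labelled *Gadd45a*-WT and replicates 1 and 2 labelled *Gadd45a*-KO, with adjusted p from 0.0102 to 0.0136 and log2 fold changes from -0.71 to -0.65. Without both thalamic-rich replicates, 2 and 3 labelled *Gadd45a*-KO, the log2 fold change was -0.66 with an adjusted p of 0.0250. The share of reads without a gene also differed between the labels without overlap, as given above, and its part in the level of *Malat1* was not tested. Total *Malat1* RNA was not measured in these poly(A) libraries. For *Grin2a*, the study reported lower levels in *Gadd45a*-KO mice after PA with oligo(dT)-primed cDNA. With random-primed cDNA it found no significant difference.

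**Figure D1:**
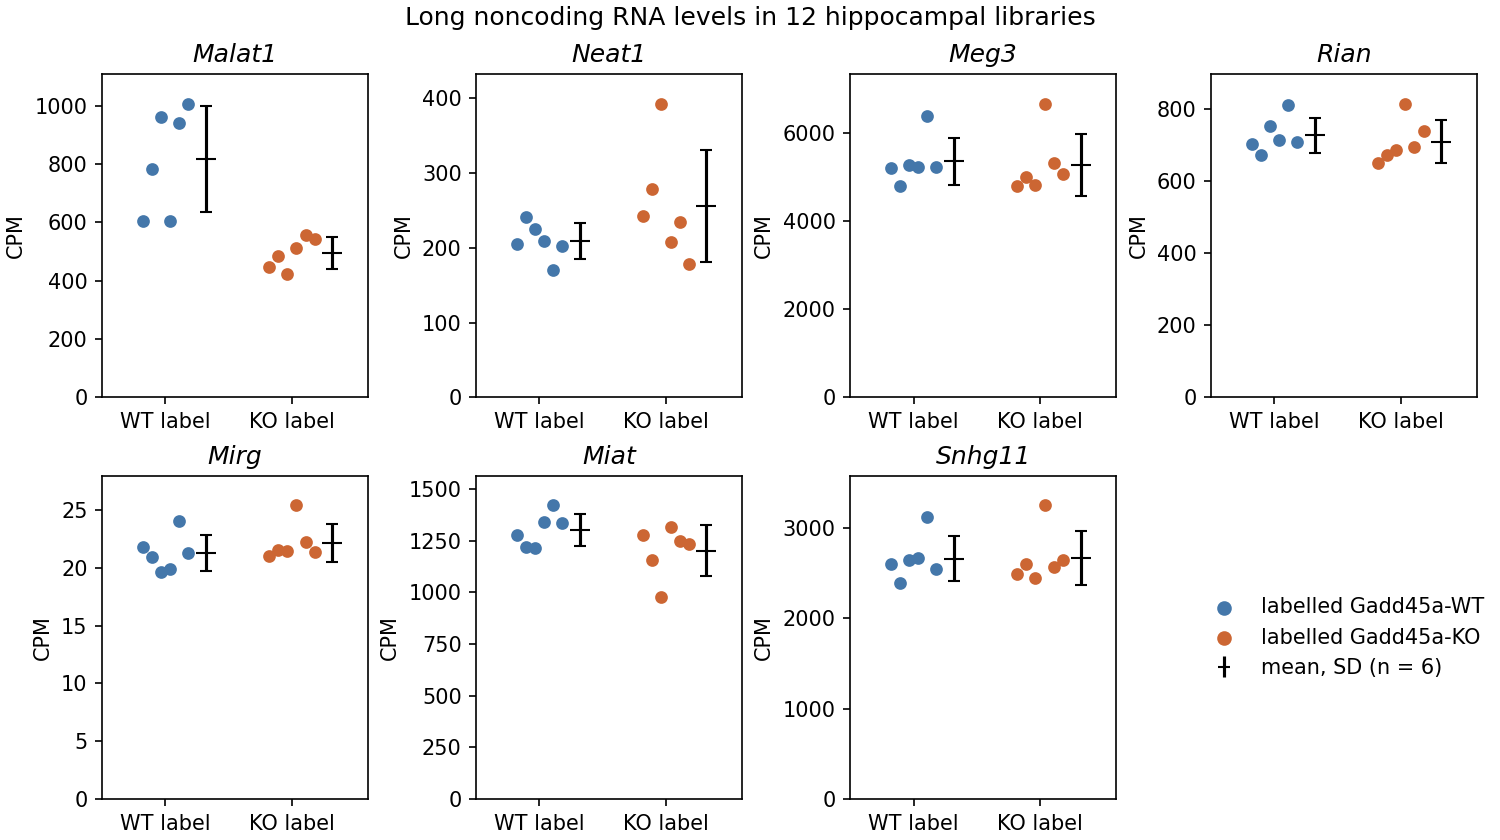
CPM of the 7 measured long noncoding RNAs in each library (points, 6 per label) with the mean and SD beside them, each vertical axis starting at 0. *Malat1* is the gene whose labels do not overlap, with 604 to 1007 CPM against 422 to 557 CPM, while replicate 5 labelled *Gadd45a*-WT and replicate 4 labelled *Gadd45a*-KO stand above the rest for *Meg3*, *Mirg* and *Snhg11*.

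*Neat1* (ENSMUSG00000092274), at chr19:5824708-5845478, had 170, 207 and 241 CPM at the lowest, median and highest in WT-labelled libraries. In KO-labelled ones the values were 178, 238 and 392 CPM. The labels overlapped, and replicate 3 labelled *Gadd45a*-KO stood highest at 392 CPM, followed by replicate 2 of that label at 278 CPM. The log2 fold change was 0.29 (SE 0.15, 95% interval -0.03 to 0.62, edgeR quasi-likelihood test, Benjamini-Hochberg adjusted p = 0.427). It was 0.14 without replicate 3, 0.05 without replicates 2 and 3 of that label, and 0.52 with an offset for transcript length.

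Markers of oligodendrocytes, the myelinating cells of the brain, moved with *Neat1*. Of the 8 tested, edgeR called 0, with 7 at an unadjusted p under 0.05, where 13.7% of all tested genes lie, and DESeq2, which called 4.18% of all tested genes, called 0. Their summed level was 2398 to 3803 CPM in WT-labelled libraries and 3129 to 7543 CPM in KO-labelled ones, with replicate 3 of the latter highest. After the mean of each label was removed, *Neat1* followed this sum over the 12 libraries with Pearson's r = 0.90 and Spearman's rho = 0.81, and the sum of the thalamic markers with r = 0.88 and rho = 0.84. These correlations are given as a description, since the points share the same libraries and scaling. *Malat1* showed r = -0.34 with the oligodendrocyte sum and -0.29 with the thalamic sum. The part of either cell source in these levels was not tested.

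**Figure D2:**
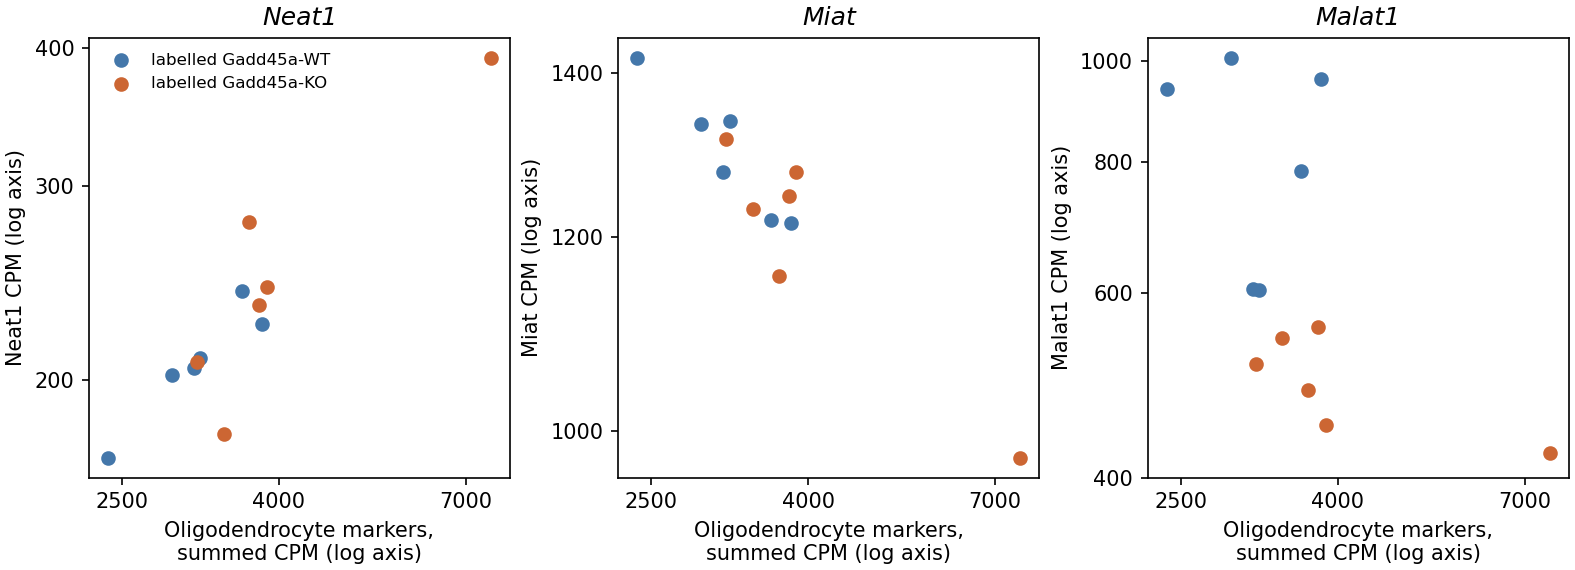
CPM of *Neat1*, *Miat* and *Malat1* (vertical log axes) against the summed CPM of 8 oligodendrocyte markers (horizontal log axes), 1 point per library. *Neat1* is higher and *Miat* lower where the sum is higher, and the library with a sum of 7543 CPM is replicate 3 labelled *Gadd45a*-KO.

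The genes around these neighbours and the proteins of the bodies they form were counted as well. Of 9 tested protein-coding genes of the *Malat1-Neat1* region edgeR called 0 and DESeq2 called 0. At an unadjusted p under 0.05, where 13.7% of all tested genes lie, there was 1. Log2 fold changes ran from -0.02 to 0.41 with a median of 0.07. Of 17 tested paraspeckle protein genes edgeR called 0 and DESeq2 called 0. There were 2 at an unadjusted p under 0.05, beside the same 13.7% of all tested genes. The median log2 fold change of the 17 was -0.02 beside 0.00 over all tested genes. The 2 genes of that list with the smallest adjusted p were *Cpsf6*, a cleavage factor subunit (log2 fold change -0.14, edgeR quasi-likelihood test, Benjamini-Hochberg adjusted p = 0.0493), and *Sfpq* (-0.18, adjusted p = 0.0604 from the same test). They were singled out after their values were seen. Of 18 SR splicing factors and speckle proteins 2 were lower, beside 2.62% of all tested genes, 0 were higher and the median was -0.04. *Son*, a large scaffold protein of nuclear speckles, had 449.95 to 564 CPM in WT-labelled libraries and 370.2 to 415 CPM in KO-labelled ones, a log2 fold change of -0.37 (SE 0.05, edgeR quasi-likelihood test, Benjamini-Hochberg adjusted p = 0.000776). *Sf3b1*, a subunit of the splicing factor that recognises branch points, differed by -0.16 (SE 0.03, adjusted p = 0.00389 from the same test).

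None of the imprinted host transcripts passed the test between the labels (edgeR and DESeq2, 0 of 3, with 0 at an unadjusted p under 0.05). Their annotated genes hold many small RNAs, and some mature miRNAs are shown because they name the cargo of these hosts. RefSeq (GRCm38.p6) places 3 mature miRNAs within *Meg3*, 6 within *Rian* and 19 within *Mirg*, and the only seed held by more than 1 of these 28 is that of miR-453 and miR-496a-5p. The seed (bases 2 to 8) is in capitals.
miR-770-5p, in Meg3: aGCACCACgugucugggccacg
miR-370-3p, in Rian: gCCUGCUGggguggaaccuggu
miR-453, in Mirg: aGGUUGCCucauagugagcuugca
miR-496a-5p, in Mirg: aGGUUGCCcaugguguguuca
miR-410-3p, in Mirg: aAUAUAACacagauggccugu
These libraries measured poly(A) RNA of the hosts and give no level of the mature miRNAs.

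*Meg3* (ENSMUSG00000021268), at chr12:110779211-110809936 on the plus strand, had 216386 to 335924 reads per library. In WT-labelled libraries the lowest was 4816 CPM, the median 5240.1 and the highest 6387. In KO-labelled ones the lowest was 4806 CPM, the median 5042 and the highest 6677. The labels overlapped almost fully, and 1 library of each stood above its others, replicate 5 labelled *Gadd45a*-WT and replicate 4 labelled *Gadd45a*-KO. The log2 fold change was -0.02 (SE 0.08, edgeR quasi-likelihood test, Benjamini-Hochberg adjusted p = 0.955), and its 95% interval reached from 13.1% lower to 11.7% higher.

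*Rian* (ENSMUSG00000091793), at chr12:110842155-110899919, hosts snoRNAs of the SNORD113 family. It had 671, 711 and 809.7 CPM at the lowest, median and highest in WT-labelled libraries. In KO-labelled ones the values were 648, 689.8 and 814 CPM. The labels overlapped, with a log2 fold change of -0.04 (SE 0.06, 95% interval -0.16 to 0.09, edgeR quasi-likelihood test, Benjamini-Hochberg adjusted p = 0.873).

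*Mirg* (ENSMUSG00000091158), at chr12:110973191-110987665, hosts a miRNA cluster and had 942 to 1264 reads per library. Its values were 19.6, 21.1 and 24.0 CPM at the lowest, median and highest in WT-labelled libraries. In KO-labelled ones they were 21.0, 21.5 and 25.4 CPM. The labels overlapped, with a log2 fold change of 0.06 (SE 0.06, 95% interval -0.06 to 0.18, edgeR quasi-likelihood test, Benjamini-Hochberg adjusted p = 0.752).

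Small genes annotated inside the hosts on the same strand were counted apart. *Rian* holds 17 of them, 13 snoRNAs and 4 miRNAs, and 15 had reads. These were *SNORD112*, 9 genes named *SNORD113*, *AF357355*, *Mir341*, *Mir1188*, *Mir370* and *AC152063.1*, with at most 72 reads in a library. *Mirg* holds 9 miRNA genes, of which *Mir453*, *Mir154*, *Mir496*, *Mir541*, *Mir412*, *Mir369* and *AC121784.5* had reads, at most 66 in a library. *Meg3* holds 2 miRNA genes, both at 0 reads. Reads within a shared exon count for neither gene under the counting used, which touched 4 of the small genes in *Mirg*, 2 in *Rian*, 2 in *Meg3* and 1 in *Snhg11*. Of these, *Mir412* and *Mir369* in *Mirg* still held 5 to 19 and 3 to 11 reads per library. On the other strand, *Gm20417* opposite *Malat1* had 0 to 18 reads and *Gm17639* opposite *Meg3* had 0 to 10.

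Protein-coding genes of the *Dlk1-Dio3* region gave 0 calls among 8 tested by edgeR and by DESeq2. There were 0 at an unadjusted p under 0.05, beside 13.7% of all tested genes, and the median log2 fold change was 0.02. *Dlk1*, a Notch-like transmembrane protein, had 0.180 to 1.46 CPM in WT-labelled libraries and 0.286 to 1.88 CPM in KO-labelled ones. *Dio3*, a deiodinase that inactivates thyroid hormone, had 0.178 to 0.837 CPM and 0.176 to 0.514 CPM.

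Of 24 other imprinted genes tested, 4 were lower, beside 2.62% of all tested genes, 0 were higher and the median log2 fold change was 0.02. All 4 lie on chromosome 7, as do other genes of the list that were not called, among them *Snrpn*, *Ndn*, *Inpp5f* and *Igf2*. *Ube3a*, a ubiquitin ligase expressed from the maternal allele in neurons, had 21.5 to 26.7 CPM in WT-labelled libraries and 15.9 to 17.4 CPM in KO-labelled ones, a log2 fold change of -0.50 (SE 0.06, edgeR quasi-likelihood test, Benjamini-Hochberg adjusted p = 0.000110). The other 3 are neighbours in the *Peg3* imprinted region. *Peg3*, a zinc finger gene, differed by -0.30 (SE 0.06), *Usp29* by -0.58 (SE 0.09) and *Zim1* by -1.26 (SE 0.21) on the log2 scale, with adjusted p of 0.00470, 0.00126 and 0.00248 from the same edgeR test. In the region of *Peg13*, which was not measured, edgeR called 0 of 4 genes. Of these 4, 2 had an unadjusted p under 0.05, beside 13.7% of all tested genes. Their summed level was 208 to 235 CPM in WT-labelled libraries and 179 to 207 CPM in KO-labelled ones, without overlap. DESeq2 called 1 of the 4, beside 4.18% of all tested genes. The called gene was *Ago2*, the slicing Argonaute protein of miRNA silencing (edgeR log2 fold change -0.29, SE 0.07, quasi-likelihood test, adjusted p = 0.0178). The potassium channel gene *Kcnk9* had a log2 fold change of -0.72 (SE 0.20, edgeR quasi-likelihood test, Benjamini-Hochberg adjusted p = 0.0550), with 12.3 to 18.97 CPM in WT-labelled libraries and 5.65 to 13.1 CPM in KO-labelled ones. Both *Ago2* and *Kcnk9* were named after their values were seen. The study lists *Kcnk9* among the ion channel genes reduced in *Gadd45a*-KO mice, from another test, DESeq at 1% FDR.

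*Miat* (ENSMUSG00000086878), at chr5:112642248-112657968 on the minus strand, had 1216, 1305 and 1420.5 CPM at the lowest, median and highest in WT-labelled libraries. In KO-labelled ones the values were 975, 1240.0 and 1316 CPM. The labels overlapped, and replicate 3 labelled *Gadd45a*-KO was lowest. The log2 fold change was -0.12 (SE 0.07, 95% interval -0.26 to 0.03, edgeR quasi-likelihood test, Benjamini-Hochberg adjusted p = 0.496). It was -0.04 without replicates 2 and 3 labelled *Gadd45a*-KO and -0.01 with the length offset. *Miat* ran against the oligodendrocyte sum (r = -0.93, rho = -0.78) and the thalamic sum (r = -0.87, rho = -0.85) over the 12 libraries after removal of the label means, given as a description.

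Of 5 tested genes for splicing factors linked to *Miat*, 1 was lower, beside 2.62% of all tested genes. None was higher and the median log2 fold change was -0.11. Their summed level was 1643 to 1744 CPM in WT-labelled libraries and 1419 to 1619 CPM in KO-labelled ones, without overlap. *Celf2*, an RNA-binding splicing regulator of neurons, had 585 to 662 CPM in WT-labelled libraries and 489.8 to 560.2 CPM in KO-labelled ones, a log2 fold change of -0.27 (SE 0.04, edgeR quasi-likelihood test, Benjamini-Hochberg adjusted p = 0.00162). Of 8 neuron markers 1 was lower, beside 2.62% of all tested genes, and 0 were higher. The lower one was *Map2*, a dendritic microtubule protein, by -0.33 on the log2 scale (SE 0.06, adjusted p = 0.00389 from the same test). The summed level of the list overlapped at 7288 to 8761 CPM and 7560 to 8456 CPM.

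*Snhg11* (ENSMUSG00000044349), at chr2:158201374-158211881 on the plus strand, had 2391, 2617 and 3116 CPM at the lowest, median and highest in WT-labelled libraries. In KO-labelled ones the values were 2447, 2581 and 3245 CPM. The log2 fold change was 0.00 (SE 0.07, edgeR quasi-likelihood test, Benjamini-Hochberg adjusted p = 0.993), with a 95% interval from 10.2% lower to 11.9% higher. Its intronic *SNORA71* gene had 61 to 115 reads per library. The annotation lists *Snhg11* as protein-coding, although it is known as a snoRNA host. Of 13 other tested snoRNA host genes edgeR and DESeq2 called 0, with log2 fold changes from -0.13 to 0.12. There were 0 at an unadjusted p under 0.05, beside 13.7% of all tested genes. Among 20 other tested long noncoding RNA genes 1 was lower, beside 2.62% of all tested genes, and 0 higher, with a median of -0.06. Their summed level was 1173 to 1246 CPM in WT-labelled libraries against 1115 to 1159 CPM in KO-labelled ones, without overlap. The gene called lower was *Oip5os1*, annotated as 1700020I14Rik and also called Cyrano, with 456 to 540.4 CPM and 399 to 451 CPM and a log2 fold change of -0.22 (SE 0.05, edgeR quasi-likelihood test, Benjamini-Hochberg adjusted p = 0.00885).

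**Figure D3:**
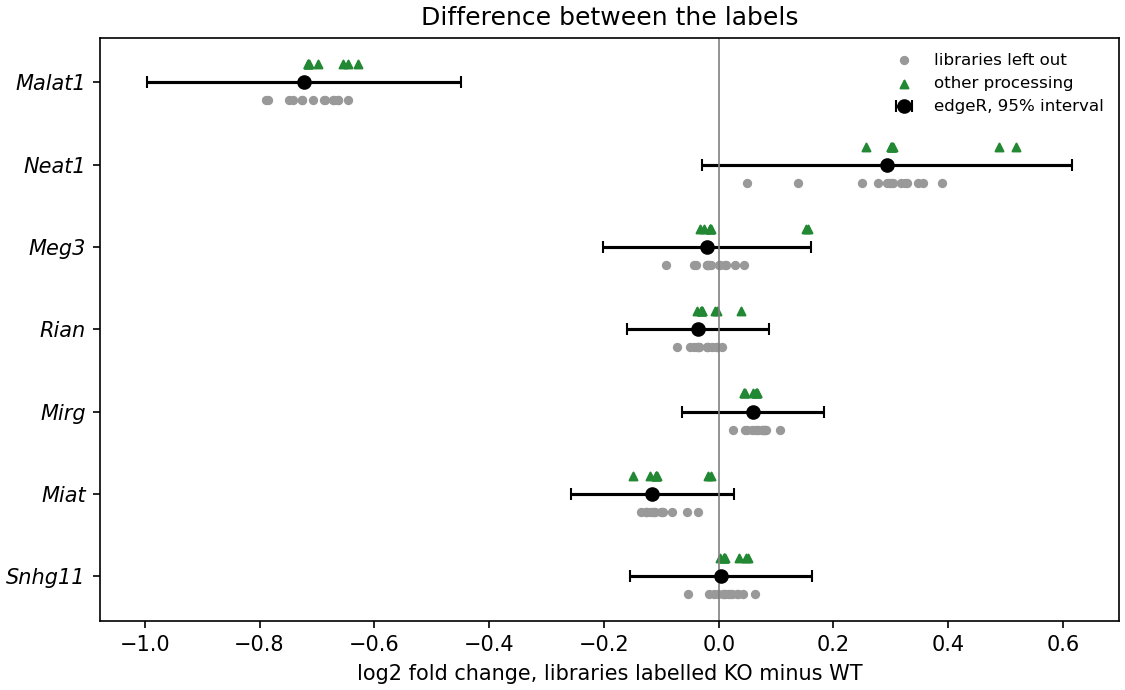
Log2 fold change of each long noncoding RNA, libraries labelled KO minus WT, with its 95% interval (black), with libraries left out (grey circles below) and under other processing (green triangles above). The interval of *Malat1*, -0.997 to -0.45, is the one that excludes 0, and all its alternatives lie below 0.

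Levels of different genes were compared only per length, as RPKM (CPM divided by the kilobases of annotated exon). Poly(A) libraries do not fully represent transcripts without a poly(A) tail, so the order is one of captured reads and may differ from that of total RNA. In WT-labelled libraries the order was *Snhg11* (312 ± 28.7 RPKM, SD, n = 6), *Meg3* (297 ± 29.3), *Miat* (149 ± 9.03), *Malat1* (117 ± 25.9), *Rian* (88.6 ± 5.90), *Neat1* (10.04 ± 1.15) and *Mirg* (6.70 ± 0.499). The ranges of *Snhg11* and *Meg3* overlapped, as did those of *Miat* and *Malat1* and of *Malat1* and *Rian*. In KO-labelled libraries, *Malat1* at 70.9 ± 7.63 RPKM stood below *Rian* at 86.4 ± 7.28 RPKM, with ranges of 60.4 to 79.8 and 79.1 to 99.3 that overlapped. This order depends on the length used, since over the longest transcript alone *Rian* stood above *Malat1* under both labels, at 138 and 135 RPKM against 117 and 70.9 RPKM. *Neat1* has a short and a long form that share a start, and counts over all 20771 bases spread both over the length of the long one. The 7 genes together took 1.01 to 1.26% of reads on genes in WT-labelled libraries and 0.988 to 1.26% in KO-labelled ones, of which *Meg3* alone took 0.478 to 0.659%.

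**Figure D4:**
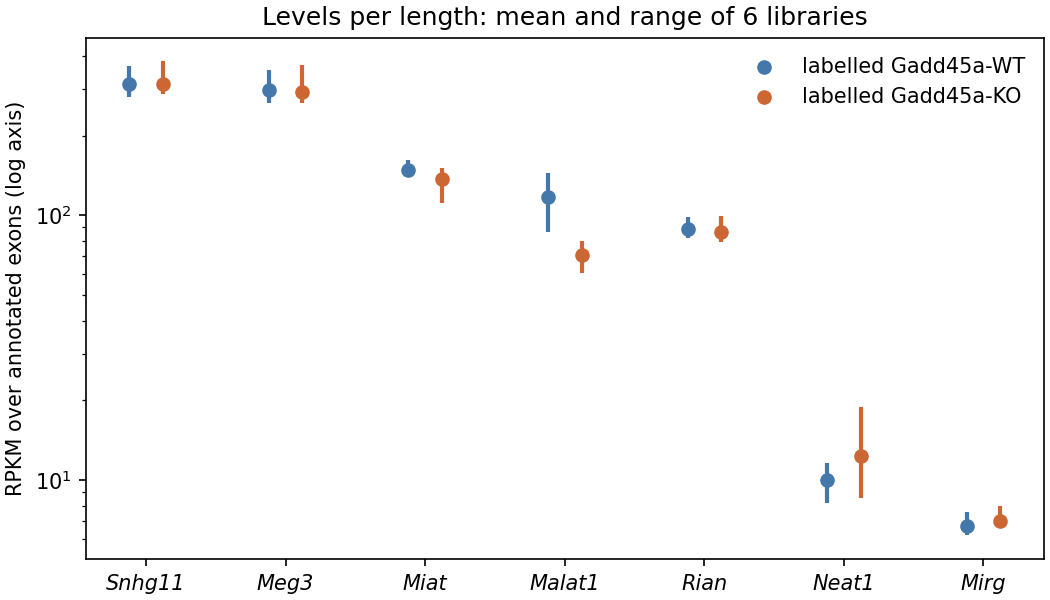
Level per length of each long noncoding RNA in RPKM (log axis), with the mean (point) and the range of 6 libraries (line) for each label. *Malat1* goes from 117 to 70.9 RPKM between the labels, which puts it below *Rian* over annotated exons, while over the longest transcript it is below *Rian* under both labels, and *Neat1* and *Mirg* lie lowest in both.

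Across libraries, *Meg3*, *Rian* and *Snhg11* varied together within the labels. Deviations of log2 CPM from the mean of the label were correlated over the 12 libraries for all 21 pairs, with libraries permuted within their label and p-values adjusted over the pairs. For *Meg3* and *Snhg11*, which lie on different chromosomes, Pearson's r was 0.97 (permutation test, adjusted p = 0.00693) and Spearman's rho 0.74 (adjusted p = 0.0571). For *Rian* and *Snhg11* r was 0.92 (permutation test, adjusted p = 0.00693) and rho 0.84 (adjusted p = 0.0185). For *Meg3* and *Rian* r was 0.91 (permutation test, adjusted p = 0.00791) and rho 0.83 (adjusted p = 0.0185). Replicate 5 labelled *Gadd45a*-WT and replicate 4 labelled *Gadd45a*-KO carried much of this. Without them, which were also the 2 libraries farthest from the median, r was 0.79, 0.71 and 0.64 for the same pairs. For *Meg3* and *Mirg* r was 0.87 (permutation test, adjusted p = 0.0473) and rho 0.47 (adjusted p = 0.208), but r was 0.12 without these libraries, so that this relation rested on them. *Neat1* and *Miat* ran opposite, with r = -0.88 (permutation test, adjusted p = 0.00940), rho = -0.85 (adjusted p = 0.0185) and r = -0.90 without the 2 libraries farthest from the median. No pair with *Malat1* passed an adjusted p of 0.05, and its r values ranged from -0.38 with *Neat1* to 0.42 with *Rian*.

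**Figure D5:**
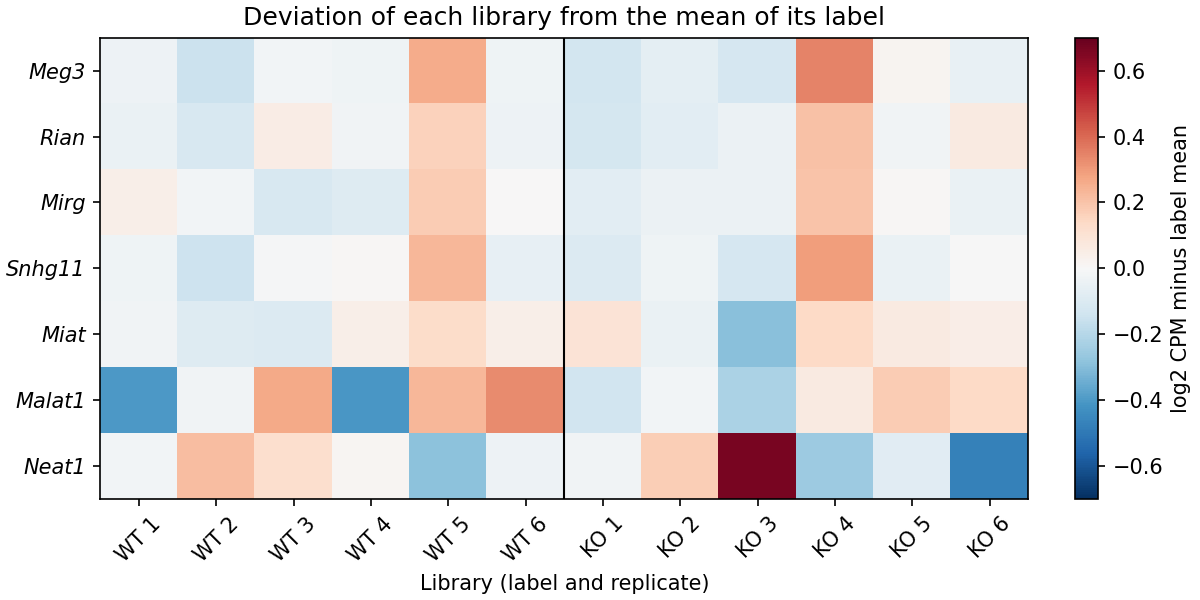
Log2 CPM of each long noncoding RNA minus the mean of its label (colour) in the 12 libraries. WT 5 and KO 4 are high for *Meg3*, *Rian*, *Mirg* and *Snhg11*, and KO 3 is high for *Neat1* (0.66) and low for *Miat* (-0.29).

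The promoters of *Meg3* and *Snhg11*, the pair with the highest Pearson's r, are shown. By Spearman's rho *Rian* and *Snhg11* stood higher (0.84 against 0.74). The windows are from RefSeq, GRCm38.p6, from 250 bases before to 50 after the start, with each TGACG on either strand in capitals. TGACGTCA is the cAMP response element and TGACG its half-site, so 1 full element holds 2 overlapping half-sites. The first *Meg3* window is chr12:109540746-109541045 and that of *Snhg11* chr2:158375463-158375762, both on the plus strand.
Meg3 promoter: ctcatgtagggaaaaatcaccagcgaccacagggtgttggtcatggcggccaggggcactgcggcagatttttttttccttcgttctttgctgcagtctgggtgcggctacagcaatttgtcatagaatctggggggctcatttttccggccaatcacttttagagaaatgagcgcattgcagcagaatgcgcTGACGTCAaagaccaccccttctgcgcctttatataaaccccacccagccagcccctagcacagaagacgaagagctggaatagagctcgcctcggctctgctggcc
Snhg11 promoter: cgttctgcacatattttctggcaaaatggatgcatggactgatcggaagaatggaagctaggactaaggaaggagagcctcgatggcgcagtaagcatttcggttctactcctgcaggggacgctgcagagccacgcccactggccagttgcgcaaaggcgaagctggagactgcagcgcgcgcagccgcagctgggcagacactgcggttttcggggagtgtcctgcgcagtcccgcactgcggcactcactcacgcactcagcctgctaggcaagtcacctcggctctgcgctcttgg
The *Meg3* window held 1 full element and 1 TATAAA, and the *Snhg11* window held no half-site. The full element occurred in 1.79% of 32851 promoter windows, TGACG on either strand in 20.8% and TATAAA on the given strand in 8.32%. Windows were found for 6 of the 8 genes. That of *Malat1* had 3 half-sites, at a share of 1.03% of windows with at least 3, and those of *Rian*, *Mirg*, *Miat* and the second of *Meg3* had 0. These matches describe letters and were not tested against any level.

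The genes most like each member were ranked by Pearson's r of the same deviations over the 12 libraries among 13858 tested genes of at least 1 CPM, as a description. *Malat1* was most like *Znhit6* (0.95), *Dclre1c* (0.94) and *Naa25* (0.94). *Neat1* was most like *Gng11* (0.97), *Plekhg3* (0.97) and *Kcna6* (0.97), and *Miat* most like *4933427D14Rik* (0.94), *Grhl1* (0.94) and *Dach1* (0.94). *Meg3* was most like *Unc13b* (0.93), *Mmab* (0.93) and *Gm16485* (0.93), and *Rian* most like *Slc35f5* (0.96), *Slc9a2* (0.95) and *Rgsl1* (0.95). *Mirg* was most like *A830073O21Rik* (0.91), *Mmab* (0.90) and *Kcp* (0.89), and *Snhg11* was close to *4930539E08Rik* (0.92) and *Mmab* (0.92). *Mmab* thus stood among the closest 3 for *Meg3*, *Mirg* and *Snhg11*, and its r with each fell to between 0.48 and 0.50 without the 2 libraries farthest from that member's median.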

How the data were processed

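Poly(A) RNA of the hippocampi of 12 mice, 6 per label, was sequenced by the authors on stranded libraries. Per the labels, reads were aligned to NCBIM37/mm9 with TopHat 1.4.1 and counted per Ensembl gene with HTSeq 0.5.4p3. The deposited values are whole read counts per gene, not normalized and not pooled. Rows for reads without a gene, ambiguous reads and non-unique alignments were left out of totals and tests.

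Gene symbols came from GENCODE M1, of the same build but an earlier Ensembl release, which matched 37205 of 37991 IDs. Counts were filtered and scaled by TMM with edgeR 4.0.16 (R 4.3.3) and compared by its quasi-likelihood test without covariates, adjusted over all tested genes, at 1% FDR. Standard errors came from the F statistic. Log2 CPM used a prior count of 2. Permutation tests were run in Python 3.11.15 with numpy 2.4.6, exact over 924 assignments or with 100000 draws for correlations. Correlation coefficients and their adjustment over pairs came from scipy 1.17.1. All members are named, with the 3 genes most like each and the genes called in 19 further lists, or the 5 largest changes of a list where more were called. The members and lists were chosen with earlier results of these data known. Alternatives were DESeq2 1.42.0, RLE factors, other filters, 5% FDR, a replicate block, offsets for GC content or length (splines with 5 degrees of freedom), a prior count of 0.5, CPM without TMM, the longest transcript, and libraries left out. No source says that libraries came from separate cages or days, and p-values measure the spread between these mice. *Peg13* was not analysed here. One of the genes most like *Snhg11* is not reported here.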

Additional observations from a re-analysis of the deposited data

Results flagged for a closer look

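Among 50 groups of 6 libraries examined, 14 of them levels of the long noncoding RNAs, 18 of other called genes and 18 of summed cell type markers, 7 held a library farther from the rest than Dixon's 95% limit allows, where chance flags about 1 in 20 (2.5 expected). The 5 among the long noncoding RNAs are high values in the same pair of libraries. Replicate 5 labelled *Gadd45a*-WT had 6387 CPM of *Meg3* (others 4816 to 5283 CPM) and 3116 CPM of *Snhg11* (others 2391 to 2659 CPM). Replicate 4 labelled *Gadd45a*-KO had 6677 CPM of *Meg3* (others 4806 to 5322 CPM), 25.4 CPM of *Mirg* (others 21.0 to 22.2 CPM) and 3245 CPM of *Snhg11* (others 2447 to 2645 CPM). These values are not independent of each other, since the genes varied together. Without both libraries, the log2 fold change was -0.04 for *Meg3*, 0.06 for *Mirg* and -0.01 for *Snhg11*. The other 2 are marker sums, 7543 CPM for oligodendrocytes in replicate 3 labelled *Gadd45a*-KO (others 3129 to 3857 CPM) and 348 CPM for microglia in replicate 6 of that label (others 302 to 318 CPM).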

How the results depend on the processing

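*Malat1* was lower with all 12 libraries (log2 fold change -0.72) and passed 1% FDR under 8 of 8 other ways of processing, with adjusted p from 1.11e-06 to 0.00584 and log2 fold changes from -0.72 to -0.63. With 1 library left out its log2 fold change ranged from -0.79 to -0.65 and the number of called members from 0 to 1. In 2 settings chosen after seeing the data the call was also lost: without replicates 2 and 3 labelled *Gadd45a*-KO (log2 fold change -0.66, adjusted p = 0.0250, 0 members called) and without replicate 5 labelled *Gadd45a*-WT and replicate 4 labelled *Gadd45a*-KO (-0.69, adjusted p = 0.0191, 0 members called), all from edgeR's quasi-likelihood test. No other member passed 1% FDR in any of these settings. The smallest adjusted p of *Neat1* was 0.0211, with the length offset and replicate block (log2 fold change 0.49, SE 0.098, edgeR quasi-likelihood test). *Meg3*, near 0, changed sign with the length offset (0.16), the length offset and replicate block (0.15) and without replicates 2 and 3 labelled *Gadd45a*-KO (0.028), and ranged from -0.091 to 0.044 with 1 library left out. *Rian* changed sign with the GC offset (0.038) and ranged from -0.072 to 0.0057, and *Snhg11* from -0.053 to 0.063, with 1 library left out. *Snhg11* was -0.01 without replicates 5 and 4 named above. The cause was not tested.

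Over all tested genes 430 were lower and 4 higher. The lower count was 247 with the length offset, 272 with it and the replicate block, 667 with DESeq2, 726 at 5% FDR, 199 without replicates 2 and 3 labelled *Gadd45a*-KO, 213 without the pair of replicates 5 and 4, and 239 to 467 with 1 library left out. The higher count was 15 with the GC offset, 18 with DESeq2, 20 at 5% FDR and 3 to 4 with 1 library left out. The replicate block alone gave 509 lower and 5 higher genes and 1 called member. Under that block *Malat1* had a log2 fold change of -0.70 (SE 0.10, edgeR quasi-likelihood test, adjusted p = 0.00306). Deviations of same-numbered libraries correlated over 0.1 for 5 of 6 numbers and at -0.0761 for 1. The mean was 0.14 for same-numbered libraries and -0.028 for different numbers. Whether the numbers pair the mice was not tested, and the main test did not use them. Over the longest transcript alone *Rian* stood at 138 and 135 RPKM, above *Malat1* under both labels, and *Snhg11* at 453 and 454 RPKM.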

Other observations

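The remaining lists set beside the long noncoding RNAs gave 0 calls at 1% FDR with edgeR and with DESeq2. All 9 immediate early genes, which neurons switch on after activity, were tested. At an unadjusted p under 0.05, where 13.7% of all tested genes lie, there were 2 of the 9. The median log2 fold change of the 9 was -0.11, with summed levels of 252 to 338 CPM in libraries labelled *Gadd45a*-WT and 195 to 329 CPM in those labelled *Gadd45a*-KO. At the same unadjusted threshold there were 0 of 8 interneuron, 1 of 8 microglia, 1 of 8 choroid plexus and 0 of 8 hippocampal subfield markers. There were 3 of 7 astrocyte, 3 of 8 endothelial and mural and 4 of 8 thalamic markers. Summed levels also overlapped between the labels for 8 interneuron markers (674 to 755 and 646 to 752 CPM), 7 astrocyte markers (1884 to 2290 and 2072 to 2261 CPM), 8 microglia markers (284 to 316 and 302 to 348 CPM), 8 endothelial and mural markers (246 to 313 and 283 to 319 CPM) and 8 choroid plexus markers (39.6 to 68.0 and 32.6 to 85.1 CPM). They did not overlap for the other long noncoding RNA genes, the genes of the *Peg13* region and the splicing factors linked to *Miat*. The largest falls in CPM within these lists were those of *Oip5os1* (means of 497 and 425 CPM), *Ago2* (123 and 101 CPM) and *Celf2* (636 and 528 CPM). Log2 fold changes were negative for 14 of 20, 3 of 4 and 4 of 5 of their tested genes. Over all tested genes they were negative for 7905 of 16399. Among the marker lists they were negative for 0 of 7 astrocyte and 0 of 8 each of oligodendrocyte, microglia, endothelial and mural, and thalamic markers. They were negative for 2 of 8 neuron, 7 of 8 interneuron, 3 of 8 choroid plexus and 5 of 8 hippocampal subfield markers. How often sums of other genes do not overlap was not tested.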
